A study of Mus musculus with 9 samples.

Results

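The genes whose ribosome footprint counts were graded with the number of Q111 alleles were chosen by a rule on the measured values of 3 mouse striatal cell lines. Counts scaled to a column total of 1000000 (CPM) had to average at least 5 in 1 line. Group means had to differ at least 1.5-fold in 1 direction at both steps, from control to HD-het and from HD-het to HD-homo cells, with no overlap of library values between neighbouring lines. Of 36410 rows, 9918 reached the 5 CPM floor. The rule selected 163 rows that were graded upward, which is 1.64% of those 9918, and 69 rows that were graded downward, which is 0.696%. The 232 rows stand for 231 loci, because cGAS is listed both as Cgas and under its older symbol Mb21d1. Since the rule used these very values, the levels and folds of its members are descriptions and carry no test.

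The control line STHdhQ7/Q7 carries no Q111 allele, the HD-het line STHdhQ7/Q111 carries 1 and the HD-homo line STHdhQ111/Q111 carries 2, where Q7 and Q111 give the number of glutamines encoded in exon 1 of Htt. All 3 lines are immortalized striatal cells of strain C57/BL6 by label, all were exposed to cycloheximide for 10 min, and 3 independent rounds of culture gave 3 libraries per line. Ribosome-protected fragments of 26 to 32 nt came from 80S monosomes, and library totals ran from 22504543 to 41888701 counts. Each allele number is represented by 1 established line, so the number of Q111 alleles and any other difference between the lines cannot be told apart. A count of 3 in every library, the floor used here, corresponds to 0.1 CPM in the control line, to 0.109 in the HD-het line and to 0.113 in the HD-homo line, and it covers counting error only.

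Huntingtin carries a stretch of glutamines near its start, and lengthening of that stretch causes Huntington disease, whose first damage is in the striatum. The mutation acts dominantly, and patients nearly always carry a single expanded allele. Lines with none, 1 and 2 expanded alleles let a graded readout be separated from one that differs only in a single line. With 1 line per allele number, a graded order is not thereby tied to the alleles. A footprint count reflects both how much mRNA a cell has and how densely ribosomes cover it. No mRNA library entered the analysis, so the values are not ratios to mRNA, and fewer producing cells in a culture and less RNA in each cell cannot be told apart.

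The labelled cell type was set against marker genes. Of 22 striatal neuron markers, 4 reached 5 CPM in 1 line, and 8, among them Bcl11b, Drd1, Drd2 and Gad1, had at most 3 counts in every library. Their summed level was 83.2 to 93.5 CPM in control, 96.8 to 106.8 in HD-het and 99.1 to 112.3 in HD-homo cells. General neuron markers summed to 227.4 to 261.4 CPM in control, 134.2 to 156.5 in HD-het and 157.0 to 159.3 in HD-homo cells. For astrocyte markers the sums were 277.6 to 331.4, 209.5 to 299.8 and 356.2 to 397.8 CPM in the same order. Oligodendrocyte lineage markers summed to 38.6 to 71.0, 230.5 to 324.5 and 157.6 to 253.1 CPM. The 12 mural and fibroblast markers summed to 7014 to 9797 CPM in control, 28310 to 30490 in HD-het and 6047 to 7518 in HD-homo cells, and 3 of them, Col1a2, Dcn and Pdgfra, were members. Rgs5 and Thy1 of that list had at most 3 counts in every library. The sum of this list was thus highest in HD-het cells, while its 3 members were highest in HD-homo cells. The part of cell identity in the graded genes was not tested.

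Graded rows were a small share of all rows that differed at both steps. By the same fold and overlap limits, 1181 rows (11.9%) were highest in HD-het cells and 1368 (13.8%) were lowest there, together 25.7% of the rows at the 5 CPM floor against 2.34% graded rows. When the same rule was applied with another line in the middle, it selected 477 rows with the control line between the others (4.81%) and 150 with the HD-homo line between the others (1.51%). These counts share libraries and are given side by side only. Both steps also share the HD-het libraries, whose deviations push a row toward the highest or the lowest class.

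**Figure D1:**
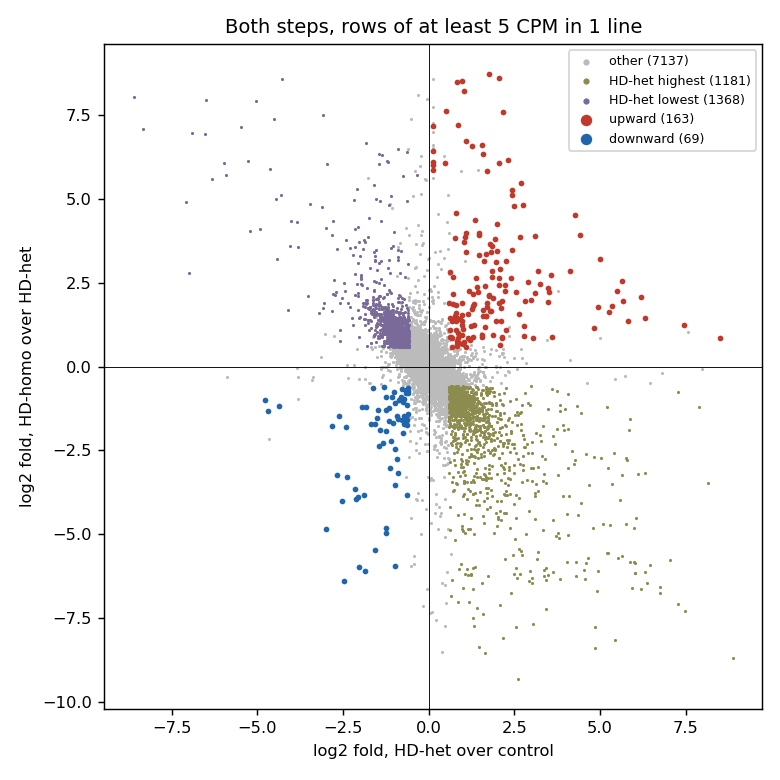
Each point is 1 row with a mean of at least 5 CPM in 1 line. The horizontal axis is the log2 fold of HD-het over control means, the vertical axis that of HD-homo over HD-het means, with means under the 3-count floor raised to it. The 163 upward members lie at the upper right and the 69 downward members at the lower left, and both are sparse beside the 1368 rows lowest and the 1181 rows highest in HD-het cells. The members were selected on these axes.

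In edgeR's quasi-likelihood test over all 12678 rows that passed its filter, 335 rows (2.64%) were called higher and 222 (1.75%) lower at both steps at an adjusted p-value under 0.05. All 163 upward members were tested and 152 of them were among the rows called higher. All 69 downward members were among the rows called lower. The rule used the same contrasts, so nothing is read from these counts. The 11 upward members without both calls included Il1rl1, Thbd, Selp, Ifit1, Oas1a, C1qtnf6 and Rtp4.

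The rule was also applied to the 6 libraries of 2 replicate numbers, and the 3 libraries left out were then read. These come from the same 3 lines, so the values describe how far differences between lines repeat and not their tie to the allele number. Most rows chosen were members, 151 of the 164 upward rows with replicate 1 left out. When replicate 1 was left out, 164 rows were chosen upward, 159 of them (97.0%) held the same order in the libraries left out and 137 (83.5%) had both steps of at least 1.5-fold there. Of all rows at the 5 CPM floor in the 6 libraries, 13.2% held that order in the libraries left out and 1.82% had both such steps. With replicates 2 and 3 left out, 138 of 181 and 137 of 176 upward rows met both steps, against 1.88% and 1.97% of all such rows. Downward, the numbers with replicate 1, 2 or 3 left out were 53 of 77, 58 of 72 and 58 of 73, against 0.726%, 0.837% and 0.958%. The order alone was held by 73 of 77, 69 of 72 and 63 of 73 downward rows, against 9.57%, 9.16% and 12.6%.

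The 2 steps were unequal for most members. Upward members had a median fold of 3.20 from control to HD-het and of 4.34 from HD-het to HD-homo cells, and 22.9 over both. The second fold was the larger in 99 of 163. Raising means to the floor can shrink the first fold, as in the 22 upward members with at most 3 counts in every control library. Downward members had medians of 2.25, 3.08 and 8.89, with the larger fold at the second step in 54 of 69. On the linear CPM scale, HD-het cells had gone a median of 17.4% of the way from control to HD-homo in upward members (range 0.168% to 57.1%) and 65.9% in downward members (range 37.7% to 97.3%). Of the upward members 53 had gone under 10% of the way, and 37 lay between 30% and 70%. Of the downward members 41 lay between 30% and 70%. A rule of 1.5-fold steps bounds this measure from above in upward and from below in downward members, so the contrast between the directions is partly built in.

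**Figure D2:**
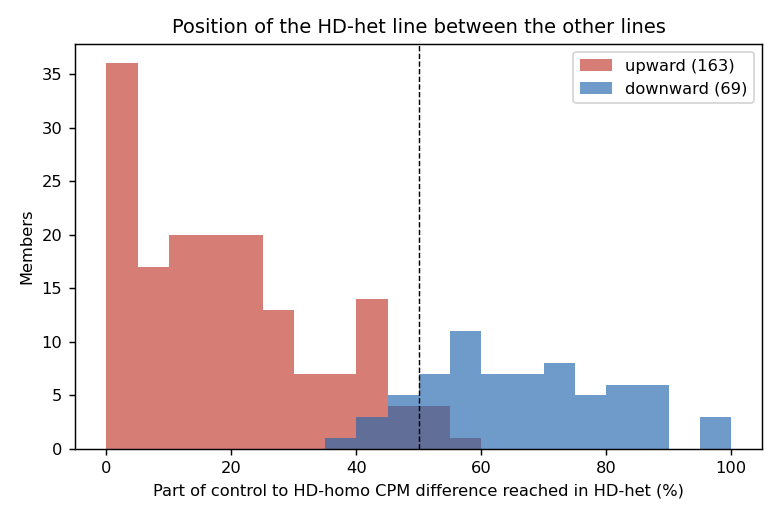
The horizontal axis gives how far the HD-het mean had moved from the control to the HD-homo mean, in percent of that CPM difference, and the vertical axis the number of members in bins of equal width. Upward members gather at the low end (median 17.4%) and downward members above the dashed line at the middle (median 65.9%).

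Rows at the edge of the rule differed little from those beyond it. On the group means as measured, which the rule used without raising any to the floor, the upward members nearest the limit were Tysnd1 and C1qtnf6 (both 1.51-fold at the lesser step), and the nearest rows left out were Evc2 and Sipa1 (both 1.49-fold). Downward, Cotl1 and Nbea (both 1.51-fold) were in, and Ces1g (1.49-fold) and Sap30 (1.48-fold) were out. In Aebp1, Ifi44 and Smad9 the lowest HD-homo library stood less than 1.1-fold above the highest HD-het library, and in Nr2f2 and Rgs2 the downward gap was as narrow. Of the members named here, Aebp1, Ifi44, Smad9, Tysnd1, C1qtnf6, Cotl1, Nbea and Mxra7 were not selected with TMM-scaled totals, nor were Il1rl1 and Irf7.

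The interferon-stimulated genes formed the largest group of members within 1 list. These genes are switched on when a cell receives type I interferon, and many of their products sense or destroy viral nucleic acid. Of 53 list genes at the 5 CPM floor, 25 were graded upward (47.2%, against 1.64% of all rows) and none downward. Over the 70 list genes that edgeR tested, 25 were called higher at both steps and 0 lower, beside 2.64% and 1.75% of all rows tested. At the first step 32 were called higher and 10 lower, and at the second 56 higher and 5 lower. Calls at single steps were common in the whole table. Of the 12678 rows tested, 2759 were called higher and then lower, and 2771 lower and then higher. The median log2 fold of the list was 0.89 at the first and 1.86 at the second step, beside 0.02 and 0.02 over all rows tested. The rise of interferon genes was known when the list was written, so its count is no independent evidence.

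The promoters of several of these members hold the core of the interferon response element, the letters GAAANNGAAA on either strand. Among upward members of the list with a promoter in the RefSeq table (300 bases, 250 before and 50 after the start), 10 of 21 held it, against 1079 of 27025 genes with a promoter (3.99%) and 281 of the 7893 such genes at the 5 CPM floor (3.56%). Among list genes at the 5 CPM floor that were not members it was 11 of 23. Of upward members outside the list 5 of 108 held it, and of downward members 0 of 50. The stretches below, all lying before the start site in GRCm38.p6, show every match within them in capitals, in 5 list members and in the chemokine gene Cxcl10, read 5′ to 3′ along the gene's strand. Isg15 holds 3 overlapping matches and Ifit1 has 2 apart from each other. In Ifit1, Ifit3, Ifit3b and Gbp2 the element runs on the opposite strand, so its reverse complement is printed.
Isg15, chr4:156200850-156200909, minus strand: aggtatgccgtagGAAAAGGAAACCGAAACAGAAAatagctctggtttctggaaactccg
Cxcl10, chr5:92349068-92349127, minus strand: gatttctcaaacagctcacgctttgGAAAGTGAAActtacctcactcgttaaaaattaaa
Ifit1, chr19:34640779-34640838, plus strand: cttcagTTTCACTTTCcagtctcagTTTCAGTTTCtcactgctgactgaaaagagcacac
Gbp2, chr3:142620579-142620638, plus strand: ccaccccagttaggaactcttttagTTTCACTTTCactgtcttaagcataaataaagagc
Ifit3, chr19:34583382-34583441, plus strand: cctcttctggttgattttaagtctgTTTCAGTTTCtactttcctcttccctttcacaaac
Ifit3b, chr19:34607778-34607837, plus strand: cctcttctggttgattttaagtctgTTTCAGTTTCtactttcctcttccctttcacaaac
Ifit3 and Ifit3b share every base of the stretch shown. Their transcripts are near-identical copies too, and how fragments common to both were assigned is not stated, so their separate counts are uncertain. The same holds for Oas1a with its copy Oas1g, for the H60 genes and for Xlr with 3830403N18Rik.

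Sensors and signalling proteins came first in order of action. Cgas, the cytosolic DNA sensor that the study followed, was all but missing from the control libraries, with counts of 0, 2 and 0. Its level was 2.13, 2.11 and 1.54 CPM in HD-het and 37.2, 47.8 and 48.7 CPM in HD-homo cells, a 23.1-fold second step, and HD-het cells had gone 4.29% of the way. With the control mean raised to the floor, the log2 steps were 4.27 and 4.53, while edgeR fitted 6.31 and 4.44. The row under the older symbol Mb21d1 had fitted log2 steps of 7.35 and 4.73. Ifih1, which encodes the double-stranded RNA sensor MDA5, had 0.226, 0.0955 and 0.231 CPM in control, 2.32, 2.36 and 1.93 in HD-het, and 12.7, 15.5 and 15.6 in HD-homo cells. The lines were well apart in both sensors, and both were among the 10 upward members with the largest lesser step. Ddx58, which encodes the RNA sensor RIG-I, showed smaller steps of 1.96-fold and 3.71-fold, from 8.55 ± 0.102 to 16.8 ± 2.52 and 62.3 ± 5.22 CPM (SD, n = 3).

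Not every transcription factor of the pathway was graded. Irf9, which acts downstream of the interferon receptor, had steps of 3.28-fold and 3.46-fold, and Irf7, an amplifier of interferon production, of 5.32-fold and 6.22-fold. Irf7 was selected in 7 of the 9 settings that left out 1 library and not with TMM-scaled totals. Stat2, with which the Irf9 product binds DNA, was not a member. Its means of 2.91 ± 0.267, 3.02 ± 0.115 and 7.68 ± 0.639 CPM (SD, n = 3) lay 1.04-fold apart at the first and 2.54-fold at the second step. Neither Irf3, Tbk1 nor Tmem173, which carry the signal from cGAS, was a member.

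The effectors followed a steep second step. Isg15, a ubiquitin-like modifier, had 0.377, 0.549 and 0.501 CPM in control, 2.02, 1.92 and 1.71 in HD-het, and 33.7, 27.0 and 46.2 in HD-homo cells, which is 3.96-fold and 18.9-fold. Xaf1, a proapoptotic interferon target, had steps of 8.51-fold and 14.7-fold. In 20 of the 25 members of the list the second fold was the larger, with medians of 2.74 and 6.62. Of the 25, 4 had at most 3 counts in every control library, where the floor can shrink the first fold. The list members had gone a median of 12.6% of the way in HD-het cells. Ifi44 was spread most widely in HD-homo cells, at 7.92, 3.62 and 20.2 CPM, against 2.85 to 3.29 CPM in HD-het cells. HD-homo replicate 3 was the highest HD-homo library in 17 of the 25 members and replicate 2 the lowest in 14.

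The 28 list genes at the 5 CPM floor that were not members fell into different orders. In 14 of them the mean was lowest in HD-het and highest in HD-homo cells, among them Ifitm3, a restriction factor of viral entry, at 98.1 ± 7.30, 43.0 ± 3.19 and 331.9 ± 89.01 CPM (SD, n = 3), and Trim25, a ubiquitin ligase acting on RIG-I, at 3.63 ± 0.126, 0.111 ± 0.0561 and 27.1 ± 1.33 CPM (SD, n = 3). In 7 the means had the graded order but missed a fold or overlapped, among them Ifi27, at 0.865 ± 0.0826, 27.8 ± 6.02 and 50.6 ± 30.9 CPM (SD, n = 3). The remaining 7 had other orders.

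**Figure D3:**
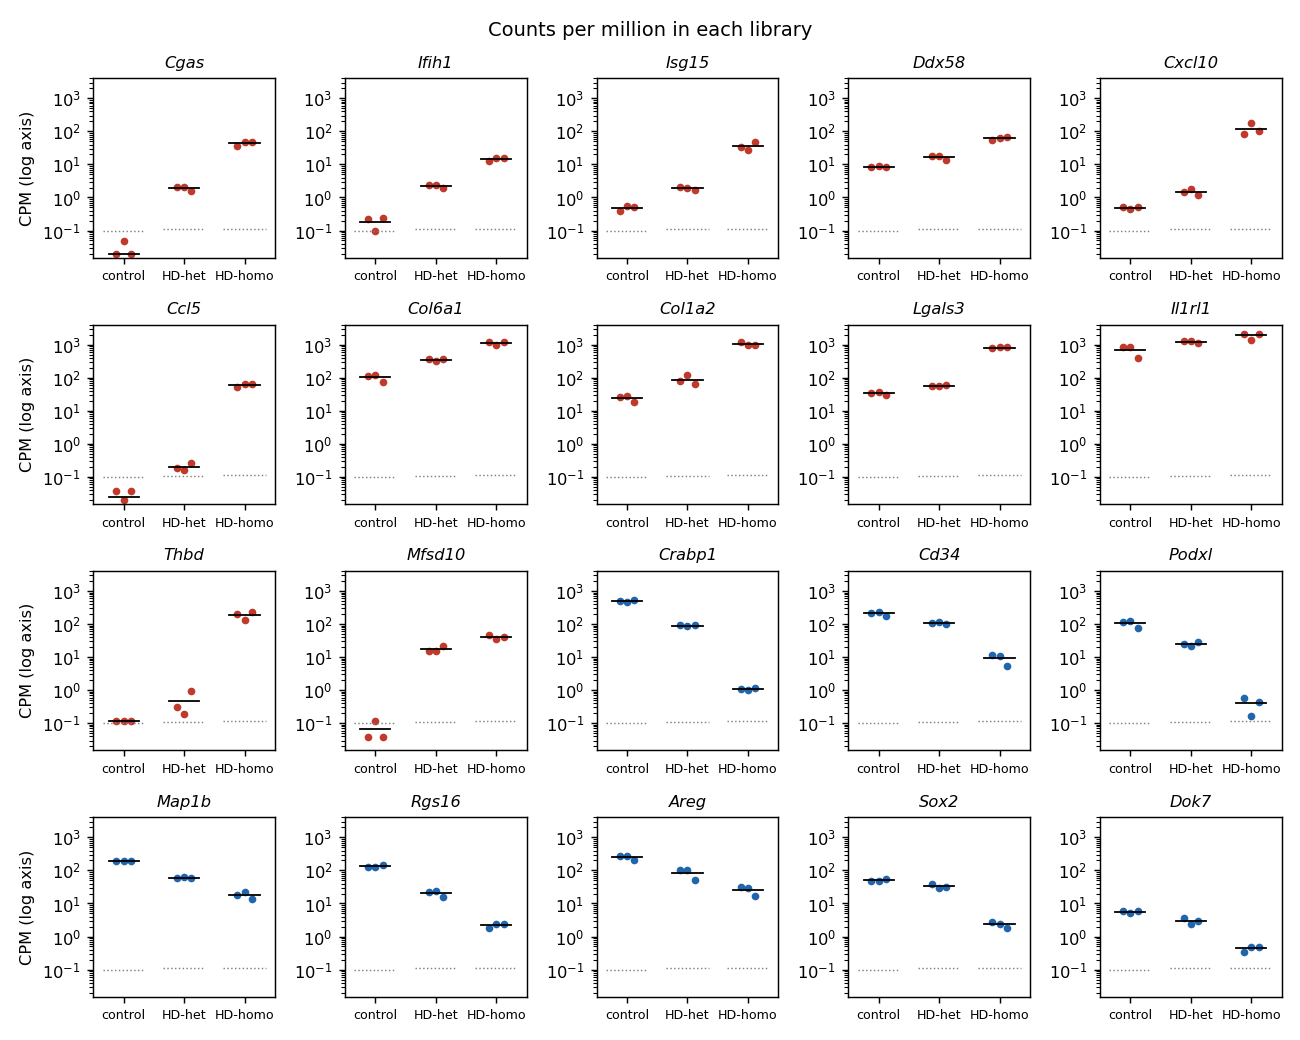
Each dot is the CPM of 1 library on a logarithmic axis, the black line is the mean of 3 libraries and the dotted line the level of 3 counts per library. Libraries with a count of 0 are drawn near the lower end of the axis. Upward members are red and downward members blue. No 2 neighbouring lines overlap in any panel, as the rule required.

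Chemokines and cytokines carry the signal to other cells, and 4 of 16 list genes at the floor were graded upward (25%, against 1.64% of all rows) and none downward. Of the same 16 genes, 4 were highest and 6 lowest in HD-het cells, against 11.9% and 13.8% of all rows. Ccl5, which attracts T cells, had 1, 0 and 1 counts in the control libraries. It had 0.187, 0.165 and 0.263 CPM in HD-het and 53.2, 64.5 and 65.8 CPM in HD-homo cells, a 298-fold second step. Cxcl10, a ligand of CXCR3 whose promoter element is printed above, had 0.528, 0.454 and 0.501 CPM in control, 1.5, 1.78 and 1.19 in HD-het, and 81.0, 175.9 and 105.5 in HD-homo cells. Ppbp, a platelet chemokine, had steps of 3.38-fold and 421-fold, the largest second fold of any upward member. Lif went the other way, with 8.17-fold and then 1.80-fold, and HD-het cells had gone 52.2% of the way. In the first 3 of these genes the HD-het value was under 1% of the way, so nearly all of the CPM change lay at the second step. In Ccl5 the HD-het values stood near the floor of 0.109 CPM, so its first step rests on small counts. The fitted first log2 steps of Ccl5, Cxcl10 and Ppbp were 3.03, 1.67 and 1.63, with standard errors of 0.68, 0.42 and 0.62.

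Matrix genes were among the members with the highest CPM, a scale that is not per length. Collagens VI and I build the pericellular and fibrillar matrix. Of 37 genes of the collagen list at the floor, 4 were graded upward (10.8%, against 1.64% of all rows) and 1 downward (against 0.696%). Another 25 were highest in HD-het cells, against 11.9% of all rows. Col6a1 (chromosome 10, 76708792 to 76726044) had 113, 121 and 74.0 CPM in control, 364, 328 and 367 in HD-het, and 1189.8, 959 and 1186 in HD-homo cells. Its neighbour Col6a2, which encodes another chain of the same heterotrimer, had steps of 6.19-fold and 2.99-fold. Both chains were higher at both steps, but Col6a3, the third chain, was highest in HD-het cells at 483 ± 26.2 CPM against 33.6 ± 14.6 in control and 219.7 ± 60.8 in HD-homo cells (SD, n = 3).

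Collagen I showed a similar split between its chains. Col1a2 (chromosome 6, 4505618 to 4541543) had 26.1, 28.0 and 18.2 CPM in control, 78.3, 119.2 and 63.0 in HD-het, and 1196, 951 and 1008 in HD-homo cells, which is 3.6-fold and 12.1-fold. Col1a1, the partner chain, was no member and was highest in HD-het cells, with means of 3353 ± 936, 16010 ± 1310 and 4677 ± 466 CPM in the order control, HD-het, HD-homo (SD, n = 3). P4ha2, a prolyl hydroxylase of collagen chains, was graded upward in steps of 1.61-fold and 1.82-fold. Col18a1, the source of endostatin, was the downward member, with 325, 357 and 242 CPM in control, 126, 122 and 84.3 in HD-het, and 49.8, 46.8 and 38.4 in HD-homo cells.

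Of 44 matricellular and elastic matrix genes at the floor, 7 were graded upward (15.9%, against 1.64% of all rows) and none downward. Another 21 were highest in HD-het cells, against 11.9% of all rows. The 7 were Nov (now Ccn3), Fbn2, Fbln1, Mfap5, Dcn, Aspn and Tgfbi. Nov, a CCN family signalling protein, had nearly equal steps of 1.96-fold and 1.90-fold. Aspn, a small leucine-rich proteoglycan, had 5.01-fold and then 71.9-fold. Fbln1, a fibulin, had 55.8-fold and then 2.59-fold, so members of 1 list put their larger step at either place. Of the matrix proteases and inhibitors 1 of 32 was a member, the gelatinase Mmp2, while 23 were highest in HD-het cells. Aebp1, which encodes a collagen-binding protein and was picked after its values were seen, had 0.566, 0.621 and 0.926 CPM in control, 229, 198 and 339 in HD-het, and 471, 365 and 559 in HD-homo cells. Its first step of 363-fold was the largest of any upward member, and its annotation overlaps that of Pold2.

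Growth factor and guidance genes were graded in small numbers, beside 1.64% of all rows graded upward and 0.696% downward. More of them were highest in HD-het cells. These were 11 of 30 TGF-beta and BMP genes, 19 of 36 axon guidance genes, 10 of 25 Wnt genes and 15 of 43 growth factor and receptor kinase genes. Of all rows at the floor 11.9% were highest there. The TGF-beta and BMP list had 3 upward members of 30, the receptors Tgfbr2 and Tgfbr3 and the BMP mediator Smad9, whose steps of 1.81-fold and 1.80-fold were among the most nearly equal. Lrrc32, which holds latent TGF-beta at the cell surface, had 2, 5 and 0 counts in the control libraries and a second step of 7.21-fold. The axon guidance list had 3 of 36, Sema3c and Sema3e, both secreted semaphorins, and the netrin receptor Unc5c. Of 25 Wnt genes Wnt11 was graded upward (4.71-fold and 4.78-fold) and the antagonist Dkk2 downward, with 1, 0 and 0 counts in the HD-homo libraries. Of 43 growth factor and receptor kinase genes Fgf7, Pdgfra and Ereg were graded upward and Areg downward.

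Ereg and Areg, both ligands of the EGF receptor, lie 45.95 kb apart on chromosome 5 and went in opposite directions. Ereg had 20.8, 22.9 and 17.4 CPM in control, 86.7, 91.6 and 60.1 in HD-het, and 222, 191 and 196 in HD-homo cells. Areg had 277, 281 and 205 CPM in control, 103, 101 and 51.6 in HD-het, and 32.6, 29.7 and 16.3 in HD-homo cells. A similar pair lies on chromosome 1, where Il1rl1, the receptor for interleukin 33, is 49.9 kb from Il18rap, a chain of the interleukin 18 receptor. Il1rl1 had 823, 863 and 398 CPM in control, 1271.5, 1276.5 and 1143 in HD-het, and 2140.5, 1412 and 2145 in HD-homo cells, and Il18rap was graded downward from 33.6 ± 0.215 to 14.3 ± 3.48 and 5.81 ± 1.68 CPM (SD, n = 3). Il1rl1 was selected in 5 of the 9 settings that left out 1 library, was not selected with TMM-scaled totals and was not called at both steps by edgeR, so the pair does not hold in those settings. These were the 2 opposite pairs among 12 neighbouring members under 100 kb apart. The other 10 ran in 1 direction and were, except Lgals3bp with C1qtnf1 and the run Ripk3, Nynrin and Sdr39u1, members of 1 family or of the Parp9, Dtx3l and Parp14 cluster. These pairs were looked at after the values were known.

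**Figure D4:**
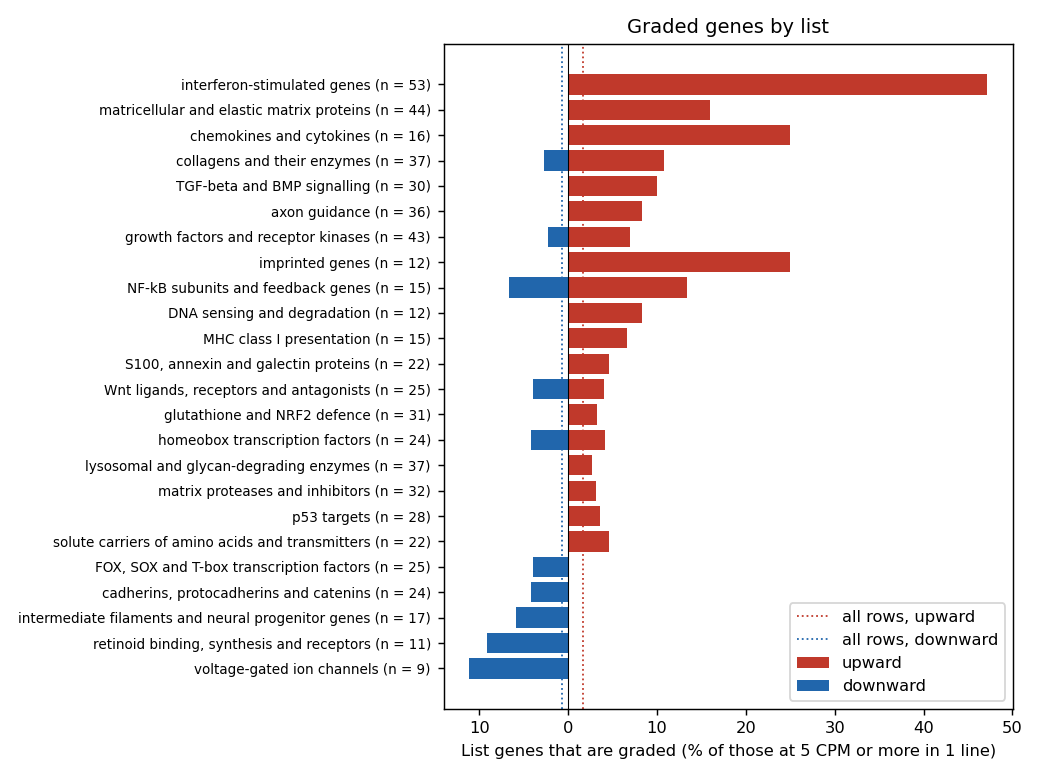
Bars give the percentage of list genes with at least 5 CPM in 1 line that were graded upward (right, red) or downward (left, blue), and n is the number of such genes. The dotted lines are the shares over all rows, 1.64% and 0.696%. Interferon-stimulated genes reach 47.2%, and most other bars stand for 1 to 4 genes. Lists with no member are not drawn.

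The remaining upward members with the highest CPM or the largest steps did not share a list. Of 22 S100, annexin and galectin genes at the floor, 1, Lgals3, was a member, beside 1.64% of all rows graded upward. Another 9 of them were lowest in HD-het cells, against 13.8% of all rows. Lgals3, which encodes galectin-3, had 35.1, 36.1 and 31.1 CPM in control, 56.8, 57.4 and 59.7 in HD-het, and 781, 848 and 835 in HD-homo cells, with little spread and 3.04% of the way gone in HD-het cells. Cavin2, a coat protein of caveolae, had steps of 3.45-fold and 12.5-fold. Medag (31.8-fold and 9.17-fold), Thsd7a (6.35-fold and 14.5-fold), Cmtm7 and Nynrin were chosen by the size of their lesser step. Syce2, a protein of the meiotic synaptonemal complex whose annotation overlaps Gcdh, was chosen in the same way and had 0, 3 and 5 counts in the control libraries. Capn6, a calpain without protease activity, had 0.151, 0.0716 and 0.0386 CPM in control, 0.599, 0.521 and 0.834 in HD-het, and 28.4, 33.3 and 24.3 in HD-homo cells. Dtd1, a D-aminoacyl-tRNA deacylase, had nearly equal steps of 2.35-fold and 2.30-fold.

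Some members shared a known role without belonging to a list, and they were picked after their values were seen. Thbd, Procr and Pros1, which encode thrombomodulin, the endothelial protein C receptor and protein S, act in the anticoagulant protein C pathway. Thbd had 0.113, 0.119 and 0.116 CPM in control, 0.300, 0.192 and 0.966 in HD-het, and 206, 133 and 232 in HD-homo cells, and the other 2 had milder steps of 3.11-fold and 2.24-fold for Procr and of 1.71-fold and 2.86-fold for Pros1. Ripk3 and Mlkl, a kinase and its substrate in necroptosis, had steps of 4.11-fold and 66.4-fold and of 11.3-fold and 4.71-fold. The zinc-finger factors Snai1 and Snai2, which act in epithelial-mesenchymal transition, had 1.74-fold and 2.15-fold and 2.33-fold and 1.72-fold. H60a, H60b and H60c, ligands of the receptor NKG2D, had first steps of 3.37-fold, 3.38-fold and 4.35-fold.

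Downward members were fewer and spread over many roles. Crabp1, which binds retinoic acid in the cytosol, stood out in both level and step. It had 509, 467 and 522 CPM in control, 91.8, 85.0 and 94.9 in HD-het, and 1.08, 1.01 and 1.16 in HD-homo cells, so the lines were 5.51-fold and 83.9-fold apart and the spread within each was small. Plin2, a coat protein of lipid droplets, was graded in near-equal steps of 1.83-fold and 1.99-fold from 459 ± 34.4 CPM in control (SD, n = 3). Cotl1, an actin-binding protein, was at the edge of the rule.

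The sialomucins Cd34 and Podxl, which occur on blood progenitors, vessels and other cells, were both downward members. Cd34 had 221, 232 and 182 CPM in control, 107, 115 and 98.4 in HD-het, and 11.5, 10.9 and 5.51 in HD-homo cells. Podxl had 115, 125 and 73.7 CPM in control, 25.2, 22.1 and 29.0 in HD-het, and 0.596, 0.161 and 0.444 in HD-homo cells. The second step was the larger in both, at 11.5-fold in Cd34 and 63.5-fold in Podxl. Ptprb, an endothelial phosphatase picked after its values were seen, was downward too, while the endothelial marker list summed to 5.36 to 6.02 CPM in control and 6.71 to 9.45 in HD-homo cells, with Tie1 and Cldn5 at no more than 3 counts in every library. Vcam1, an adhesion molecule and NF-kB target, had steps of 2.53-fold and 4.86-fold downward, whereas Birc3 and Tnfaip2 of the same list were graded upward.

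Regulators of G protein signalling, which speed the return of G proteins to rest, were found in both directions. Rgs16 had 129, 131 and 143 CPM in control, 23, 23.4 and 16.2 in HD-het, and 1.82, 2.41 and 2.44 in HD-homo cells. Rgs20 had a first downward step of 5.77-fold and then 2, 1 and 5 counts in the HD-homo libraries. Rgs2 had downward steps of 2.87-fold and 2.90-fold. Rgs4, named after its values were seen, was an upward member, at 0.0917 ± 0.0841, 0.562 ± 0.0468 and 15.4 ± 0.675 CPM (SD, n = 3).

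Neural and developmental genes were also among the downward members, in single numbers per list. Sox2, Tbx20, Shox2, Dchs1 and Kcnip1 were the only downward members of lists with 17, 25, 24, 24 and 9 genes at the floor. Downward members made up 0.696% of all rows at the floor. Irx3 of the homeobox list was graded upward, and no striatal or general neuron marker was a member. Map1b, a microtubule protein of growing neurites, had 190, 194 and 194 CPM in control, 58.1, 63.8 and 57.6 in HD-het, and 18.1, 22.9 and 13.2 in HD-homo cells, which is 3.22-fold and 3.31-fold. Sox2, a factor of neural progenitors, had 48.9, 48.7 and 56.8 CPM in control, 38.0, 29.4 and 31.3 in HD-het, and 2.81, 2.33 and 1.82 in HD-homo cells, with the smaller step first. Its annotation overlaps that of Sox2ot. The heart and motor neuron factor Tbx20 had 27.8 ± 2.11 and 7.66 ± 1.40 CPM in control and HD-het cells (SD, n = 3) and at most 3 counts in each HD-homo library, as had Kcnip1, a subunit of Kv4 channels whose annotation overlaps Kcnmb1, with 26.0 ± 1.83 and 3.26 ± 1.68 CPM (SD, n = 3). Shox2 (homeobox list), Dchs1 (cadherin list) and the nuclear receptor Nr2f2 were further members. Cbln1, a synaptic organizer, Hook1, a microtubule adaptor, Nup210, a nuclear pore protein, the protease inhibitor Cst6 and the aldehyde dehydrogenase Aldh3a1 were chosen by their lesser step, which ran from 3.69-fold in Nup210 to 5.25-fold in Cbln1. Mxra7 had near-equal steps of 1.52-fold and 1.56-fold.

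Large groups of genes held no member, which does not mean that none of their genes changed in order. No member came from 79 cytosolic ribosomal protein genes at the floor (62 of them lowest in HD-het cells), 54 cell cycle genes, 44 oxidative phosphorylation genes, 44 ATF4 targets, 36 contractile genes, 34 autophagy genes, 23 integrins and laminins or 20 genes of huntingtin and its partners. With 1.64% and 0.696% of all rows graded, lists of these sizes would hold few members in any case. Beside the ribosomal protein genes, 13.8% of all rows at the floor were lowest in HD-het cells. In any of these lists edgeR called at most 1 gene higher and 1 lower at both steps. Map1lc3a, which the study followed as LC3A, missed the fold limit but rose without overlap. Its means were 32.9 ± 2.19, 43.6 ± 4.39 and 62.3 ± 1.70 CPM in the order control, HD-het, HD-homo (SD, n = 3). Of 37 lysosomal enzymes 28 were highest in HD-het cells, against 11.9% of all rows at the floor, and 1, Ctsh, was graded.

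Htt itself was not a member. It had 27.8, 30.1 and 28.8 CPM in control, 19.1, 20.6 and 19.4 in HD-het, and 5.90, 8.09 and 6.4 in HD-homo cells, and its first step of 1.47-fold missed the limit. Its order was graded, with no overlap. Within 1000 kb on either side of Htt 21 rows reached the 5 CPM floor, Htt included, and 2 of them were members, on either side of it. Of all rows at the floor 2.34% were members, and 2 rows are too few to set against that share. Mfsd10 (chromosome 5, 34633644 to 34637215), a transporter of the major facilitator family 124.5 kb before Htt, had 1, 5 and 1 counts in the control libraries, 15.6, 15.0 and 21.7 CPM in HD-het, and 47.7, 35.3 and 40.3 in HD-homo cells. Dok7 (chromosome 5, 35056571 to 35087839), an activator of the muscle kinase MuSK 144 kb beyond Htt, had 5.81, 5.11 and 5.75 CPM in control, 3.59, 2.41 and 2.85 in HD-het, and 0.341, 0.483 and 0.489 in HD-homo cells. Between Mfsd10 and Dok7, besides Htt, the rows at the floor were Nop14 and Rgs12, which had second steps of 1.34-fold up and, from 20.8 to 10.4 CPM, down. Whether these neighbours go with the targeted allele or with other differences between the lines cannot be told apart here.

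**Figure D5:**
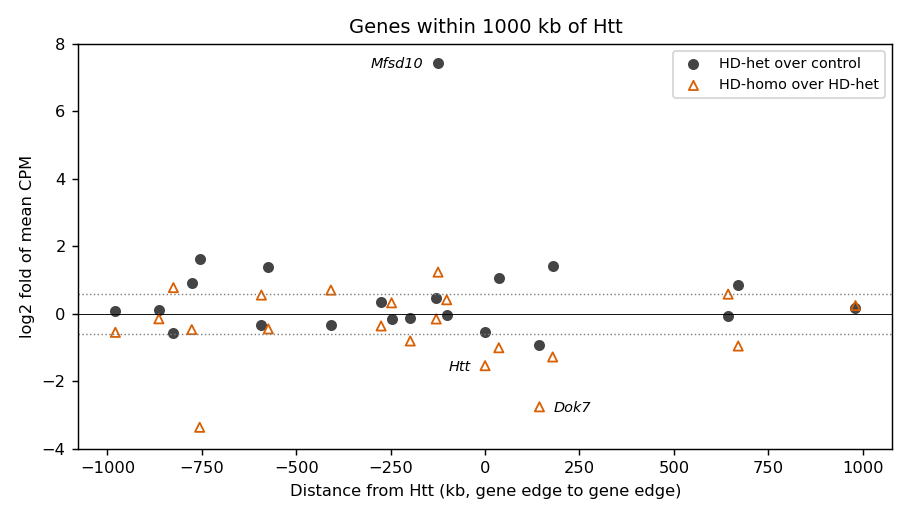
Each gene within 1000 kb of Htt is drawn at its distance from Htt, in kb, with the log2 fold of HD-het over control (filled circles) and of HD-homo over HD-het (open triangles). The dotted lines mark 1.5-fold. Mfsd10 is the highest point of the first step, and of the genes shown only Mfsd10 and Dok7 lie beyond 1.5-fold on the same side at both steps.

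Members were otherwise spread over the genome, on 20 chromosomes, with 0.985% of the rows at the floor graded on chromosome 15 and 3.50% on chromosome 3 as the extremes among those with members. Nearly all were protein coding, 230 of 231 matched rows. Among the other motifs searched on both strands in the 300-base promoters, TGANTCA, the AP-1 site, was held by 25 of 129 upward members (19.4%), 3 of 50 downward members (6.00%) and 8.97% of all genes with a promoter, or 5.87% of the 7893 at the 5 CPM floor. The NF-kB core GGGNNTTTCC was held by 5 of 129 (3.88%) and 0 of 50 against 1.89% and 1.86%, and the E-box CACGTG by 8 of 129 (6.2%) and 6 of 50 (12%) against 8.09% and 12.2%. GGAATG, bound by TEAD factors, was found in 17.8% and 22% against 16.6% and 13.9%, and TATAAA in 13.2% and 14% against 15.7% and 8.67%. A match says only that these letters are present.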

How the data were processed

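The deposited file held the authors' unnormalized fragment counts by gene symbol, in 1 column per library. The submitters' processing notes name cutadapt, Bowtie 1.0.1 and build mm10; the counting program, annotation and use of strand are not given in the sources used here. The labels describe 3 rounds of culture, and p-values measure the spread between these. From the 36410 rows, 19597 with a count of 0 throughout, CPM of column totals was computed, and the rule was applied to the group means as measured. For the folds given, means under 3 counts per library were raised to that floor. edgeR 4.0.16 (TMM, filterByExpr by group, all 9 libraries, Benjamini-Hochberg) tested both steps, after a test on simulated counts. Symbols were matched to the RefSeq table of GRCm38.p6 for 93.0% of rows, 231 of 232 members (4 by synonym), whose coordinates and promoters were used; 129 upward and 50 downward members had a promoter there. Chromosome 18 promoters were left out.

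The members and lists were chosen with earlier results of these data known. Genes were named by a rule: in each direction the 10 largest lesser steps, the 6 highest means and the 4 most nearly equal steps, then list members, genes the study followed, and rows at the threshold. The text says where others were picked. The alternatives were other scalings, floors, folds, medians, DESeq2 1.42.0, filters, a replicate block and leaving out libraries.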

Additional observations from a re-analysis of the deposited data

How the results depend on the processing

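The number of rows graded upward (163) and downward (69) depended on the limits of the rule more than on scaling. With a floor of 1 CPM the numbers were 251 and 110, and with any fold above 1 at both steps 301 and 228. With at least 2-fold steps the downward number was 36. TMM-scaled totals gave 155 and 69, with 150 and 63 rows shared with the main choice, and RLE size factors gave 158 and 67, with 148 and 61 shared. Leaving out each of the 9 libraries gave 158 to 176 upward and 66 to 75 downward rows, and with the 3 libraries of 1 replicate number left out 164 to 181 and 72 to 77. In all 9 of the former, 134 of 163 upward and 56 of 69 downward members were selected. A floor of 10 CPM left 16 graded interferon-stimulated genes. None of 936 recomputed log2 steps of the 39 named genes changed sign, and 2, both of Lgals3 at the second step under other scalings, moved by more than 1 SD (3.74 and 3.73). In edgeR, 335 rows were called higher and 222 lower at both steps. With at least 10 counts in every library these were 202 and 160, with fewer rows tested, at an adjusted p-value under 0.01 they were 210 and 126, and DESeq2 gave 338 and 223. Leaving out each library gave 264 to 365 and 173 to 250. The replicate number as a block gave 336 and 207. The correlation of deviations between libraries of 1 replicate number ran from -0.36 to 0.18, so these numbers were not taken to pair the libraries. At these depths, 22 upward members had at most 3 counts in every control library and 4 had at most 3 in every HD-het library, where the first step cannot be sized. The cause of the changes under other settings was not tested.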
